A study of Mus musculus
Mus spretus with 18 samples.

Results

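DEAD-box (Ddx) and DExH-box (Dhx) proteins are ATP-dependent enzymes that unwind or remodel RNA duplexes and RNA-protein complexes. They drive the rearrangements of the spliceosome, carry pre-ribosomal RNA through its processing steps, take part in mRNA export, translation and decay, and sense viral RNA. Most are used by every cell, while a few mark germ cells or rise in innate immune responses. The genes described here were all autosomal mouse genes whose symbol begins with Ddx or Dhx followed by a digit. They numbered 51 (35 Ddx and 16 Dhx) of the 28728 genes of the expression table that could be placed on an autosome, out of 38924 genes in all. Ddx3x and Ddx26b on the X chromosome and Ddx3y on the Y chromosome were outside the rule. Skipped exon events were listed for 50 of the 51 genes, all but Ddx28, and numbered 496 of 121350 autosomal events, which held 383 distinct exons. Retained intron events numbered 12, in 8 genes, of 2158.

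The RNA came from F1 hybrids of a C57BL/6J mother and a SPRET/EiJ father, so that reads which cover a sequence difference can be assigned to either parental allele. Cerebral cortex, heart, kidney, lung, spleen and liver were taken from female F1 animals of 8 weeks, the liver data being from an earlier experiment on the same animals, and embryonic stem cells (ESC) were 2 separately derived F1 clones. An F1 fibroblast line was given pladienolide B, an inhibitor of the SF3B complex of the U2 snRNP, at 0.1 µM for 4 h, or the solvent DMSO alone for 4 h. Every group had 2 libraries, those of the organs from the same 2 animals, so that libraries of different organs are not independent of each other. For the fibroblasts no source used here says whether they were separate cultures, so their p-values measure the spread between these libraries. The design allows 4 questions: how the helicases differ between tissues, between the alleles of a hybrid, after inhibition of the splicing machinery, and whether the last changes the difference between alleles.

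Splicing was measured as percent spliced in (PSI), the share of transcripts that include an exon or retain an intron, from reads across its junctions, each form divided by its effective length, and is given as a fraction. An exon was tested where it had 20 or more junction reads in every library compared, and, between alleles, from each allele. At 20 reads, a form with no read may still hold up to 15% of reads, a limit that covers counting error only. An exon or intron was called at a false discovery rate (FDR) below 0.05 over all autosomal events and a difference in mean PSI of 0.1 or more. Gene expression was given as TPM, a transcript abundance scaled by gene length and library total, so that levels can be compared between genes. Genes were called at an FDR below 0.05 and 1.5-fold on the log2(TPM + 0.1) scale. The junction counts summed over events, in which a read counts once for each event it supports, ranged from 45055300 to 128495000 per tissue library and from 121092000 to 144154000 in fibroblasts. By the same sum, the counts assigned to an allele ranged from 10129390 to 46565133. The summed TPM of the 3 markers of each group was highest in the group itself, from 1524 in a cortex library (Snap25, Syn1 and Gfap) to 203549 in a lung library (Sftpc, Sftpb and Scgb1a1). Over the organ and fibroblast groups together, the share of reads assigned to the maternal C57BL/6J allele had a median of 99.5% for 3 maternally expressed imprinted genes, the lowest being Igf2r in cortex at 56.2%, and of 0.461% for 4 paternally expressed ones. In ESC the 3 maternally expressed genes were at 28.7% to 45.5% and the 4 paternally expressed ones at 45.7% to 73.7%, so these genes did not check the alleles there.

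The 4 splicing and transcription cofactors include the most abundant helicase transcript. Ddx5, which acts in alternative splicing and as a transcriptional coregulator, had the highest TPM of all 51 genes in 16 of the 18 libraries, with 949 and 848 TPM in spleen, 659.8 and 694 in lung, 653 and 633 in cortex and 208 and 192 in liver. Its close relative Ddx17 had 346 and 339.7 TPM in cortex, 287 and 290.2 in ESC and 74.4 and 66.5 in liver. Dhx9, or RNA helicase A, reached 264 and 439.7 TPM in ESC and was at 34.7 and 39.2 in liver. Ddx1, which takes part in tRNA splicing and RNA transport, ranged from 65.97 and 69.2 TPM in liver to 254 and 248 in ESC.

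**Figure D1:**
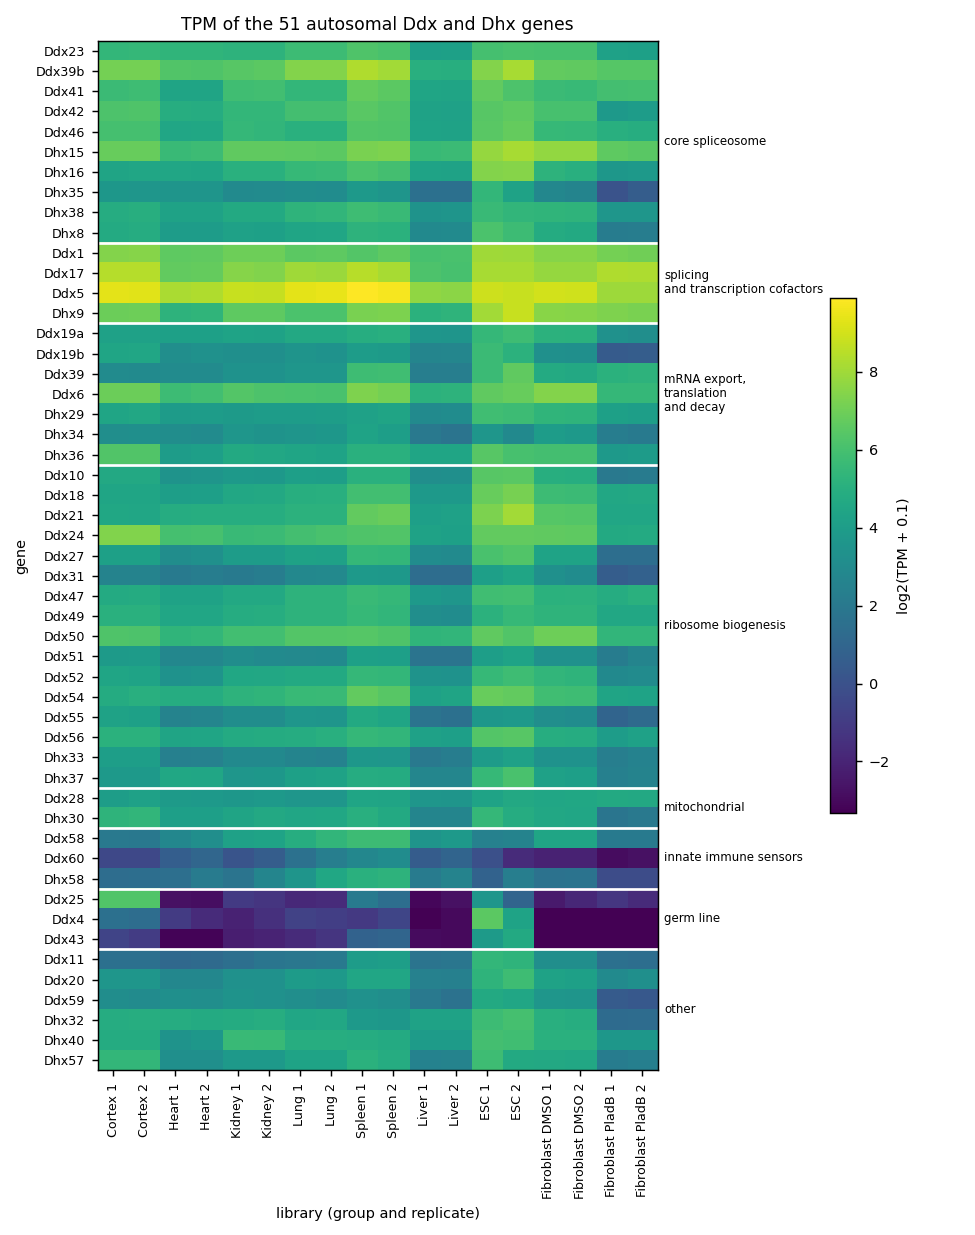
Expression of the 51 helicase genes in the 18 libraries, as log2(TPM + 0.1); each row is a gene, grouped by role, and each column a library, with brighter colours for higher levels. The liver columns are darker than those of the other organs in most rows, the ESC columns are brighter, and the pladienolide B columns are darker than the DMSO columns for most genes.

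Mean TPM was highest in ESC for 33 of the 51 genes, in spleen for 12 and in cortex for 6. It was lowest in liver for 42 genes and in heart for 5. Among the 19211 autosomal genes tested, ESC was highest for 26.1%, spleen for 16.2% and cortex for 25.7%. Liver was lowest for 53.3% and heart for 15.6%, so a low value in liver was common to most genes. Between the 7 tissues, 50 of the 51 genes were called (limma F test, with 1 log2 unit or more between tissues), where 99% of all genes tested were called, and the count therefore does not set the helicases apart. After each library was centred on the median of its tested genes, the counts were 47 genes and 97% of all. The gene not called on the deposited values was Ddx28, a mitochondrial ribosome assembly factor, with means within 0.92 log2 units of each other.

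The 10 core spliceosome helicases, which drive its successive rearrangements, were present in every tissue. Ddx23 (Prp28), which releases U1 from the 5′ splice site, had 75.5 and 67.6 TPM in spleen and 17.5 and 18.2 in liver. Ddx46 (Prp5), which acts with the U2 snRNP at the branch site, had 90.4 and 108 TPM in ESC and 20.05 and 19.6 in liver. Ddx39b (UAP56), which works in branch site recognition and mRNA export, had 316 and 269.8 TPM in spleen, 174 and 284 in ESC and 32.6 and 31.1 in liver. Liver was the lowest tissue in all 3 genes, and the ESC clones of Ddx39b lay on both sides of its second spleen library. Ddx42, an SF3B-associated factor, had 87.4 and 97.3 TPM in ESC and 19.2 and 19.1 in liver. Dhx16 (Prp2), which activates the assembled spliceosome, had 174 and 178 TPM in ESC against 71.7 and 62.02 in spleen, the next tissue, so the groups did not overlap. Dhx38 (Prp16), which acts between the catalytic steps, had 54.9 and 49.4 TPM in spleen and 10.9 and 11.9 in liver. Dhx8 (Prp22), which releases the spliced mRNA, had 70.2 and 53.6 TPM in ESC and 7.55 and 7.83 in liver. Dhx15 (Prp43), which takes the spliceosome apart, had 222 and 286 TPM in ESC and 47.3 and 51.2 in liver. Dhx35, found in catalytic spliceosomes, was the scarcest of the 10, with 43.6 and 19.5 TPM in the ESC clones and 2.84 and 2.80 in liver. Ddx41, another factor of catalytic spliceosomes, had 109 and 94.4 TPM in spleen, 107 and 73.1 in ESC and 21.00 and 20.98 in heart. The tissue means of these 10 genes spanned from 2.00 log2 units in Ddx23 to 3.33 in Dhx35, and without liver those of Ddx23 spanned 0.94, under the limit of 1.

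Compared with the mean of the 6 organs on the log2 scale, 43 helicase genes were higher in ESC and 3 were lower (limma). Of all genes tested, 43.2% were higher, 31.1% lower and 74.3% called in all. The median difference was 1.32 log2 units for the helicases and 0.32 for all genes. With median-centred values 36 were higher and 3 lower, against 37% and 36.5% of all genes and 73.5% called in all. The centred median was 1.04 for the helicases and 0.03 for all genes. Without liver, 39 genes were called instead of 46. By role, 10 of 10 core spliceosome genes, 14 of 16 ribosome biogenesis genes and 5 of 7 genes of mRNA export, translation and decay were higher, with 8, 12 and 5 after centring. Also higher were 3 of the 4 cofactors (2 after centring), both mitochondrial genes (0) and all 6 genes of other roles (6), while Ddx5 was at -0.02 log2 units. Dhx16 showed the greatest difference in the first list, of 2.48 ± 0.06 log2 units (SE, FDR = 5.26e-10). The others were Ddx46 at 1.36 ± 0.07, Dhx35 at 1.77 ± 0.22, Dhx8 at 1.67 ± 0.09, Dhx15 at 1.54 ± 0.08, Ddx41 at 1.05 ± 0.11, Ddx39b at 1.04 ± 0.14 and Ddx42 at 1.00 ± 0.06, all as log2 differences. Ddx23 at 0.71 ± 0.06 and Dhx38 at 0.76 ± 0.08 no longer reached 1.5-fold after centring, with 0.42 and 0.47, nor without liver.

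The nucleolar helicases, the longest role list, gave the most genes that were higher in ESC (14 of 16). The share was larger in some shorter lists, such as the core spliceosome (10 of 10). Ddx21, which binds pre-rRNA and the rDNA, had 154 and 264 TPM in the ESC clones, 106 and 118 in spleen and 17.5 and 18.6 in liver, a difference of 2.58 ± 0.15 log2 units from the organs (FDR = 8.45e-08). Ddx10 had 87.9 and 92.1 TPM in ESC and no more than 33.6 in any organ library (2.44 ± 0.06 log2 units). Ddx18 had 112 and 144 TPM in ESC and 59.8 and 58.7 in spleen (2.36 ± 0.08 log2 units). Ddx27, which acts in the processing of large-subunit rRNA, had 69.2 and 78.1 TPM in ESC and 44.8 and 42.6 in spleen (2.18 ± 0.07 log2 units). In each of these genes both ESC clones lay above all 12 organ libraries, spleen was the next tissue, and Ddx21 differed most between the clones. Outside the nucleolar list, Dhx9 was 2.17 ± 0.14 log2 units higher in ESC and Ddx20, the Gemin3 protein of the SMN complex that assembles snRNPs, 2.09 ± 0.11. Ddx39, the paralogue of Ddx39b in mRNA export, was 2.64 ± 0.18 higher, with 51.9 and 101 TPM in the clones and 54.4 and 56.6 in spleen, so that the clones overlapped spleen. Ddx39 and Ddx39b, like Ddx19a and Ddx19b, are near copies whose reads can be shared, so the split between them is uncertain. Ddx11, which is a DNA helicase of sister chromatid cohesion in spite of its name, was 3.30 ± 0.11 higher, with 42.8 and 38.2 TPM in ESC and 2.10 and 2.31 in heart.

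The 3 germ line helicases differed most between tissues, with means that spanned 9.21 log2 units in Ddx25 (FDR = 1.52e-06), 8.62 in Ddx4 and 7.46 in Ddx43. Ddx4 (Vasa), a component of germ cell granules, had 95.6 and 19.9 TPM in the 2 ESC clones, 2.88 and 2.58 in cortex and less than 1 TPM in every other organ library, a difference of 6.53 ± 0.46 log2 units from the organs (FDR = 3.87e-07). Ddx43 had 14.4 and 26.01 TPM in ESC, 1.69 and 1.91 in spleen and 0.0104 and 0.0107 in heart (5.88 ± 0.21 log2 units). Both were called without either ESC clone, although the clones differed severalfold in Ddx4. Ddx25, known from spermatids, was highest in cortex at 79.3 and 79.1 TPM, while ESC had 12.2 and 1.78 and heart 0.0530 and 0.0410. Its ESC difference from the mean of the organs on the log2 scale was 2.35 ± 0.51 log2 units (limma, FDR = 0.00155). On that scale ESC lay above the average organ and below cortex. In TPM both ESC clones lay below the mean of the organs, to which cortex contributed most.

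The 3 genes that were lower in ESC, which are named because of that count, were the 3 innate immune sensors. Ddx58 (RIG-I), which recognises viral RNA ends, had 52.97 and 52.9 TPM in spleen, 29.8 and 40.8 in lung, 3.99 and 3.85 in cortex and 5.43 and 5.91 in ESC, a difference of -1.44 log2 units from the organ mean (FDR = 3.96e-06). Dhx58 (LGP2), a regulator of that pathway, had 33.2 and 37.6 TPM in spleen and 1.69 and 4.95 in ESC (-1.25 log2 units, FDR = 0.0124). Ddx60 had 6.94 and 8.35 TPM in spleen and 0.833 and 0.211 in the ESC clones (-1.96 log2 units, FDR = 4.53e-04). All 3 were highest in spleen and next in lung. The leukocyte markers Ptprc and Cd3e followed that order, with summed TPM of 519.6 and 450.2 in spleen and 29.7 and 35.3 in lung. The sum was between 2.18 and 6.20 in the other organs and 3.76 and 25.4 in the ESC clones. In the clones it was almost all Cd3e (3.73 and 25.4 TPM), with Ptprc at 0.0220 and 0.0106. The part of leukocytes in these levels was not tested. In bulk tissue, fewer cells of a type and less RNA per cell cannot be told apart.

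Helicase exons were included at high rates and varied little between tissues. Of the 383 exons, 191 in 48 genes could be tested between tissues, none of them in Ddx4, Ddx25 or Ddx28. Their mean PSI over the tissues was above 0.9 for 179 (93.7%), compared with 83.6% of the 40714 autosomal exons tested. The largest difference between tissue means was under 0.05 for 164 of the 191 and reached 0.1 in 12. Called exons numbered 4 of 191 (2.09%), in 4 genes, where 7.77% of all exons were called. The median of the largest tissue difference was 0.00747 for helicase exons and 0.0139 for all. None of the 29 tested exons of the core spliceosome helicases or of the 27 exons of Ddx1, Ddx5, Ddx17 and Dhx9 was called, and 19 of the 191 had an unadjusted p below 0.05.

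The widest tissue difference that was called lay in Dhx57, in an exon of 159 bp at chr17:80278223-80278381 (mm10, minus strand). Its PSI was 0.659 and 0.633 in the cortex libraries, 0.902 and 0.913 in kidney, 1 and 0.941 in lung, 0.971 and 0.982 in spleen, 0.786 and 1 in liver and 0.915 and 0.963 in ESC, and it was not tested in heart. Cortex was the only tissue below all others, and the tissue means spanned 0.330 (FDR = 9.65e-04). An exon of 59 bp in Ddx39, at chr8:83721466-83721524 (plus strand), was mostly skipped, with PSI of 0.334 and 0.271 in cortex, 0.250 and 0.244 in lung, 0.125 and 0.0919 in kidney, 0.124 and 0.0914 in spleen, 0.0991 and 0.0767 in liver, 0.0678 and 0.0652 in heart and 0.0654 and 0.0191 in ESC. Cortex and lung stood above the rest, and the means spanned 0.260 (FDR = 0.00454).

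A short exon of Dhx30, 29 bp at chr9:110107941-110107969 (minus strand), had PSI of 0.179 and 0.287 in heart, 0.172 and 0.209 in cortex, 0.158 and 0.152 in spleen, 0.135 and 0.144 in lung, 0.100 and 0.0894 in kidney, 0.0466 and 0.128 in liver and 0.0357 and 0.0706 in ESC (largest difference 0.180, FDR = 0.0168). DHX30 is a mitochondrial RNA granule protein that takes part in mitoribosome assembly. The 2 heart libraries differed by more than neighbouring tissues did, so the order of heart and cortex is not settled. In Ddx55, a ribosome biogenesis factor, an exon of 92 bp at chr5:124556757-124556848 (plus strand) had PSI of 0.881 and 0.859 in cortex against 0.995 and 1 in lung, 0.985 and 0.997 in spleen and 0.993 and 1 in ESC, and was not tested in the other tissues. The difference was 0.128 (FDR = 0.00925), and the call was lost without either cortex library (FDR = 0.0554 without replicate 1 and 0.121 without replicate 2). Of these 4 exons, that of Dhx57 alone has a length that is a multiple of 3.

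**Figure D2:**
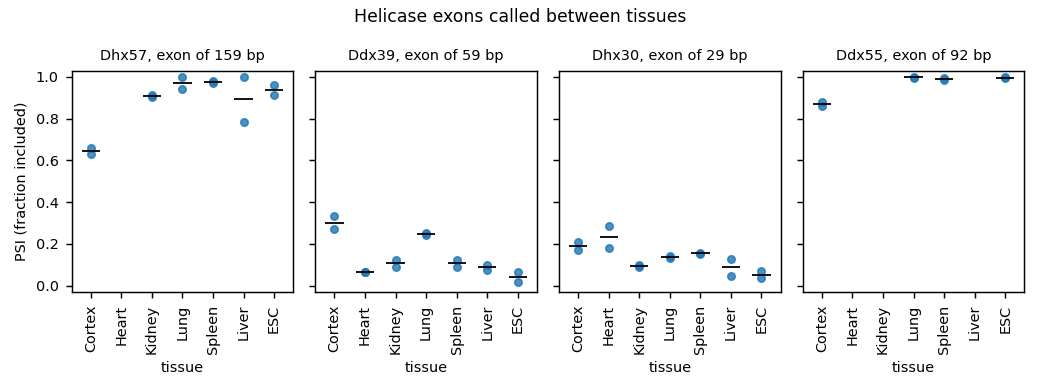
PSI of the 4 helicase exons called between tissues; points are libraries, horizontal bars are means of 2 libraries, and tissues with no point were not tested. Cortex lies below the other tissues in Dhx57 and Ddx55 and highest in Ddx39.

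Leaving out ESC replicate 2 raised the count from 4 to 7. The exons gained were one of 146 bp in Ddx21 (largest difference 0.117 on all libraries), one of 129 bp in Ddx59 (0.253) and another of Dhx30, 115 bp at chr9:110116678-110116792. The last had PSI of 0.331 and 0.107 in the 2 ESC clones and 0.0585 and 0.0769 in cortex, so that the clones lay further apart than the libraries of any organ. Among exons not called, chosen here after their values were seen, one of 110 bp in Ddx60 had the widest difference, with PSI of 0.0800 and 0.400 in heart, 0.288 and 0.589 in lung and 0.915 and 0.738 in spleen, so that the libraries of heart and of lung lay far apart (FDR = 0.110).

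Few helicase exons were called divergent between the C57BL/6J and SPRET/EiJ alleles, as was the case for exons of all genes. In all, 226 exons of 47 genes had enough reads from both alleles in at least 1 tissue, and 2 were called divergent in at least 1 tissue, both in Dhx30. The share of all exons called in at least 1 tissue was not computed. Cortex gave 2 of 79 exons (2.53%), where 1.95% of all exons tested were called, and heart 1 of 56 (1.79%), where 2.11% were called. No helicase exon was called in kidney (73 tested, 6 with an unadjusted p below 0.05; 1.92% of all called), lung (84, 7; 1.92%), spleen (102, 3; 1.93%), liver (42, 0; 1.42%) or ESC (155, 1; 0.101%). In fibroblasts under DMSO 3 of 109 exons (2.75%) were called, where 2.58% of all were. Under pladienolide B the count was 0 of 127, with 14 below an unadjusted p of 0.05, where 1.77% of all were called. The median absolute allelic difference of helicase exons was 0.00769 in cortex and 0.00462 under DMSO, compared with 0.0107 and 0.00631 over all exons. It was also below that of all exons in lung, spleen and ESC. It was above it in heart (0.0163 against 0.0133), kidney (0.0117 against 0.00870) and liver (0.0112 against 0.0101). Under pladienolide B it was above it as well (0.0158 against 0.0110), so the groups gave no common direction.

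The 2 divergent exons of Dhx30 are alternative forms of the same exon on the minus strand. The shorter, of 126 bp, lies at chr9:110115036-110115161, and the longer, of 176 bp, at chr9:110115036-110115211, and where their events have the same flanking exons their skipping reads are identical, so the 2 values are not independent. In cortex the shorter form had PSI of 0.985 and 0.978 on the C57BL/6J allele and 0.751 and 0.722 on the SPRET/EiJ allele, a difference of 0.245 (FDR = 0.00388). The longer form had 0.963 and 0.955 against 0.552 and 0.552, a difference of 0.406 (FDR = 0.00320). In both forms, the SPRET/EiJ allele skipped the exon more often, and the alleles did not overlap.

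In heart the longer form had PSI of 1 and 1 on the C57BL/6J allele and 0.344 and 0.475 on the SPRET/EiJ allele, a difference of 0.590 (FDR = 0.0291, and 0.0614 with a dispersion prior that ignored depth). The shorter form had 1 and 1 against 0.615 and 0.771 (difference 0.307, FDR = 0.0668). In DMSO fibroblasts the differences were 0.378 for the shorter form (FDR = 5.83e-09) and 0.591 for the longer (FDR = 8.03e-09), with the longer form at 0.915 and 0.926 on the C57BL/6J allele and 0.324 and 0.335 on the SPRET/EiJ allele. Under pladienolide B the shorter form had 0.559 and 0.501 against 0.138 and 0.334, on 20 to 37 reads per allele and library, a difference of 0.294 that was not called (FDR = 0.460). Both alleles were thus at lower PSI than under DMSO. From all reads, without regard to allele, the shorter form had PSI of 0.782 and 0.785 under DMSO, between the values of its alleles.

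In the remaining tissues neither form was called. The shorter form differed by 0.152 in kidney, 0.212 in lung, 0.0560 in ESC, 0.0435 in liver and -0.0271 in spleen. In lung the SPRET/EiJ allele was at 0.615 and 0.906, so the 2 animals lay far apart. C57BL/6J was the higher allele in 15 of the 18 libraries, for either form, and the alleles did not overlap in 7 of the 9 groups, spleen and liver being the exceptions.

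**Figure D3:**
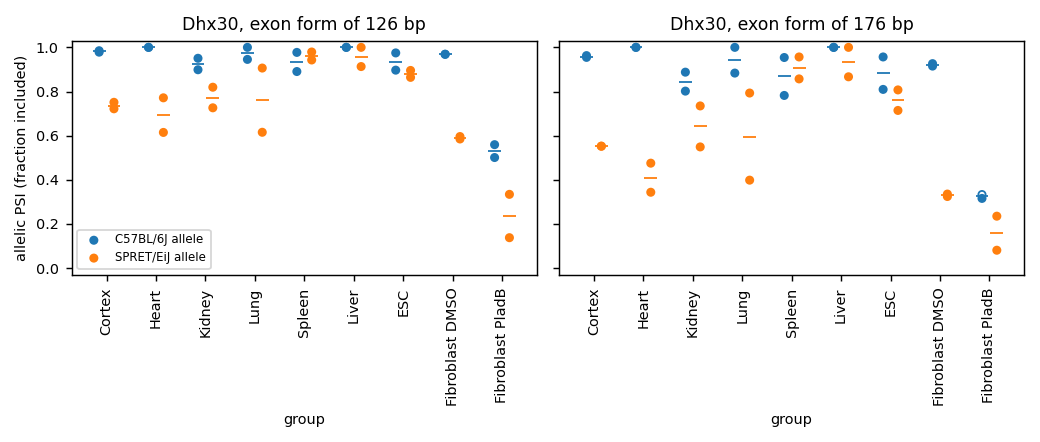
Allelic PSI of the 2 forms of the divergent Dhx30 exon in the 9 groups; points are libraries, horizontal bars are means of 2 libraries, and open points rest on fewer than 20 reads. The SPRET/EiJ points lie below the C57BL/6J points in 7 of the 9 groups and overlap them in spleen and liver.

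The 2 alleles of a library come from the same animal or culture, and when the library was added to the model as a block, 4 exons in place of 2 were called in tissues, with 3 each in cortex, lung and heart and 1 each in ESC and kidney, while spleen and liver stayed at 0. These counts added calls of both Dhx30 forms in lung (FDR = 0.000125 and 0.000227) and of the shorter form in heart (FDR = 0.00234) and kidney (FDR = 0.0360). They also added an exon of 162 bp in Ddx50, a nucleolar paralogue of Ddx21, with differences of 0.128 in cortex (FDR = 0.0440) and 0.127 in lung (FDR = 0.0183). The exon of 115 bp in Dhx30 was added with the opposite sign, -0.103 in heart (FDR = 0.0448) and -0.190 in ESC (FDR = 0.0138). Under pladienolide B the block added an exon of 72 bp in Ddx47, at -0.243 (FDR = 0.0449), and under DMSO the same 3 exons were called. The block also raised the share called over all exons. That share was 2.48% in cortex, 3.36% in lung, 3.59% in heart, 3.03% in kidney and 1.77% in ESC. It was 2.73% in spleen, 2.6% in liver, 2.75% under DMSO and 1.99% under pladienolide B, so the gain was not particular to the helicases.

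The third exon called under DMSO was one of 109 bp in Ddx31, a nucleolar helicase, at chr2:28846763-28846871 (plus strand). Its PSI was 0.270 and 0.179 on the C57BL/6J allele, on 36 and 22 reads, and 0 in both libraries on the SPRET/EiJ allele, a difference of 0.224 (FDR = 0.00286). The SPRET/EiJ allele had 0 inclusion reads of 113, which allows a share of reads of up to 2.65%. In each tissue at least 1 library had too few allelic reads for a test, and the SPRET/EiJ PSI was 0 in all 18 libraries, with 2 to 59 reads each. The C57BL/6J PSI was above 0 in 17 of the 18, the exception resting on 1 read. From all reads the exon had PSI of 0.0555 and 0.0321 in the DMSO libraries, which is nearer to the SPRET/EiJ value than to the midpoint of the alleles, and allelic reads are only those that cover a sequence difference.

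The change of the allelic difference with treatment could be tested for 54 helicase exons, of which 0 were called by the interaction F test, with 4 below an unadjusted p of 0.05, and 0% of all 12290 exons were called. In the shorter Dhx30 form the difference was 0.378 under DMSO and 0.294 under pladienolide B (interaction FDR = 0.973). The lack of calls does not show that the allelic differences were unchanged, and other settings gave calls over all exons, 9 with the library as a block, of which 0 were helicase exons.

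Helicase exons that were called after pladienolide B were all included less, as were nearly all called exons of other genes. Of 221 exons in 45 genes, 16 in 9 genes were called after treatment, and all 16 were lower (7.24%). Over all exons 7.31% were called, 7.13% lower and 0.183% higher. Mean PSI was lower in 178 of the 221 helicase exons and in 29994 of 41485 exons overall. Of the 55 helicase exons with an FDR below 0.05, 1 was higher, and 3 were higher at an unadjusted p below 0.05. The share of helicase exons with a mean PSI above 0.9 was 97.3% under DMSO and 89.1% under pladienolide B. By role, 10 of the 16 called exons lay in ribosome biogenesis genes (66 tested), 2 in core spliceosome genes (39), 2 in Dhx30 (13) and 2 in Dhx57, while none of the 33 exons of Ddx1, Ddx5, Ddx17 and Dhx9 and none of the 33 of mRNA export, translation and decay was called.

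Dhx33, a nucleolar helicase of rRNA synthesis, had 4 called exons, more than any other helicase. All are on the minus strand of chromosome 11. Its exon of 89 bp at chr11:70993610-70993698 fell from PSI 0.988 and 0.945 under DMSO to 0.227 and 0.206 under pladienolide B, a difference of -0.750 (FDR = 1.10e-06), on 22 and 41 reads after treatment. Its exon of 87 bp at chr11:70989067-70989153 fell from 1 and 0.977 to 0.434 and 0.411 (FDR = 5.93e-08). These 2 exons thus went from near full inclusion to inclusion in a minority of transcripts. The exon of 112 bp at chr11:70995139-70995250 fell from 0.918 and 0.912 to 0.632 and 0.661 (FDR = 0.0179), a call lost without pladienolide B replicate 1 (FDR = 0.240). The exon of 161 bp at chr11:71001519-71001679 fell from 1 in both libraries to 0.833 and 0.800 (FDR = 9.15e-04).

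The divergent exon of Dhx30 was next in size. Its shorter form fell from 0.782 and 0.785 to 0.352 and 0.477 (difference -0.369, FDR = 0.000635), and its longer form from 0.588 and 0.614 to 0.226 and 0.356 (difference -0.310, FDR = 0.00861), although the latter call was lost without pladienolide B replicate 1 (FDR = 0.0995). The exon of Dhx57 that was low in cortex fell from 0.981 and 1 to 0.805 and 0.690 (FDR = 1.03e-04). A second exon of Dhx57, of 839 bp, went from 1 and 0.996 to 0.977 and 0.806 (FDR = 0.00740), and that call rested on the second pladienolide B library (difference -0.0211 without it).

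Among the other nucleolar helicases, Ddx21 had an exon of 45 bp at chr10:62583054-62583098 (minus strand) that fell from 1 in both DMSO libraries to 0.799 and 0.788 (FDR = 4.28e-11), on 418 and 541 reads. Ddx51, which acts on the 3′ end of pre-rRNA, had an exon of 151 bp at chr5:110654468-110654618 that fell from 1 in both to 0.878 and 0.742 (FDR = 2.18e-05). The treated libraries of Ddx21 lay close together and those of Ddx51 further apart, and in both genes they lay below the DMSO libraries. Ddx47, a pre-rRNA processing factor, had 3 called exons, which fell to 0.852 and 0.828 (94 bp at chr6:135012302-135012395, FDR = 3.75e-11), 0.843 and 0.865 (72 bp at chr6:135015576-135015647) and 0.906 and 0.837 (72 bp at chr6:135016582-135016653) from values of 0.985 or more. The last was reduced to a difference of -0.0848 without pladienolide B replicate 2. Ddx27 had an exon of 87 bp at chr2:167020628-167020714 that was at 1 in both DMSO libraries and at 1 and 0.769 under pladienolide B, on 26 and 50 reads, so its call (FDR = 0.00999) came from 1 library and the difference was 0 without it.

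Of the core spliceosome helicases, Ddx42 had an exon of 48 bp at chr11:106239136-106239183 that fell from 0.999 and 0.998 to 0.882 and 0.850 (FDR = 4.29e-05). Dhx8 had an exon of 73 bp at chr11:101735378-101735450 that fell from 1 in both to 0.942 and 0.795 (FDR = 0.00538), and was not called without pladienolide B replicate 2 (difference -0.0582). In 15 of the 16 exons both treated libraries lay below both DMSO libraries, Ddx27 being the exception. The exons were called on these same libraries, so this order adds no support to the calls. The share among called exons of other genes was not computed. A length that is a multiple of 3 was found in 8 of the 16 called exons and 74 of the 205 not called. With a minimum of 50 reads, 9 exons were called. The helicase exon just inside the read minimum, in Dhx35, had 20 reads in its shallowest library and PSI of 0.993 and 1 under DMSO and 0.756 and 1 under pladienolide B. The one just outside it, in Ddx31, had 19 reads and PSI of 0.0142 and 0.0114, and 0 and 0.130.

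**Figure D4:**
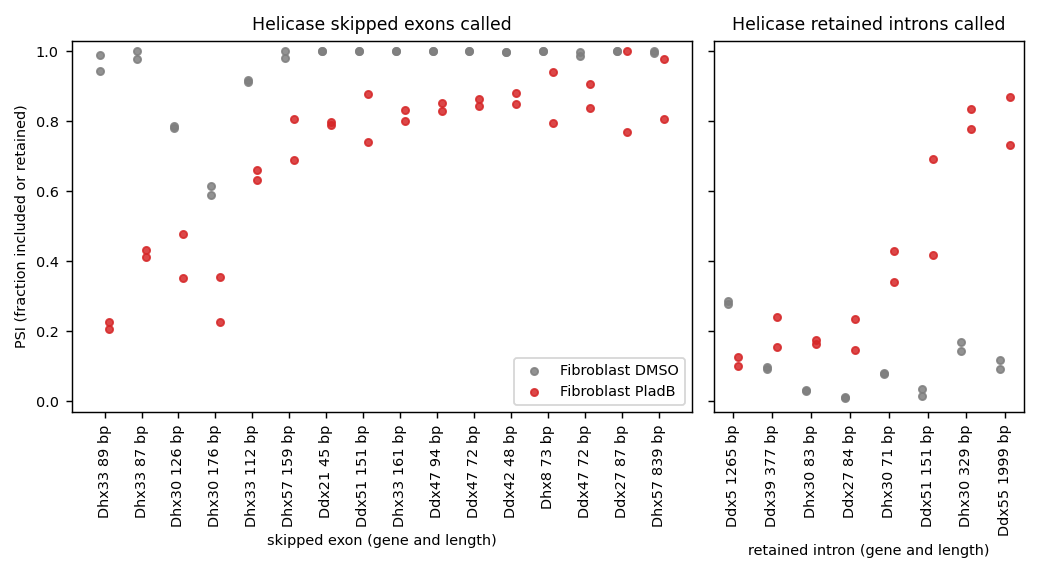
PSI in the DMSO (grey) and pladienolide B (red) fibroblast libraries for the 16 helicase exons and the 8 helicase introns that were called; each point is a library and each position an exon or intron, ordered by the difference. All 16 exons have a lower mean after treatment, and 7 of the 8 introns are higher, Ddx5 being the one that is lower.

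Most helicase introns that could be tested were retained more after treatment. Of the 12 introns listed, 11 in 7 genes could be tested, all but that of Dhx35, and 8 in 6 genes were called (72.7%), where 38% of the 1802 introns tested were called. Of the 8, 7 were higher and 1 was lower, against 35.1% higher and 2.89% lower over all introns. The median difference was 0.138 for the helicase introns and 0.0371 for all, and 5 of the 11 lay in Dhx30.

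The intron of Ddx55 of 1999 bp at chr5:124554758-124556756 rose from PSI 0.118 and 0.0931 to 0.733 and 0.868 (difference 0.695, FDR = 5.88e-07). It ends at the exon of 92 bp whose inclusion was lower in cortex. The intron of Dhx30 of 329 bp at chr9:110115162-110115490 rose from 0.145 and 0.168 to 0.778 and 0.836 (difference 0.650, FDR = 7.08e-08). It borders the shorter form of the divergent exon, whose inclusion fell, and its retention reads at that border also fit the longer exon form. The intron of Ddx51 of 151 bp at chr5:110655414-110655564 rose from 0.0361 and 0.0141 to 0.418 and 0.694 (difference 0.531, FDR = 2.99e-07). In these 3 introns, retention went from a small share to the larger share of transcripts in all but 1 treated library, that of Ddx51 replicate 1.

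Dhx30 had 2 further called introns. That of 71 bp at chr9:110085879-110085949 rose from 0.0805 and 0.0781 to 0.431 and 0.342 (FDR = 2.36e-06), and that of 83 bp at chr9:110087037-110087119 from 0.0311 and 0.0304 to 0.163 and 0.174 (FDR = 1.22e-04). The intron of Ddx27 of 84 bp at chr2:167020544-167020627, which borders its called exon, rose from 0.0119 and 0.00913 to 0.147 and 0.236 (FDR = 1.93e-04). All 3 were nearly fully spliced under DMSO. The intron of Ddx39 of 377 bp at chr8:83721853-83722229 rose from 0.0982 and 0.0924 to 0.155 and 0.241 (FDR = 2.72e-04), with a difference of only 0.0599 without pladienolide B replicate 2.

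The intron of Ddx5 went the other way. Its intron of 1265 bp at chr11:106782694-106783958 (minus strand) was retained at 0.279 and 0.287 under DMSO and fell to 0.100 and 0.128 (difference -0.169, FDR = 2.72e-08), on 7246 to 18276 reads per library, the deepest of the 11 introns. The exon of 225 bp on its 3′ side fell from a mean PSI of 0.999 to 0.941, which was under the 0.1 limit (FDR = 2.49e-13). Among introns not called, that of Ddx23 was at 0.0150 and 0.0117 under DMSO and 0.0170 and 0.0470 under pladienolide B, and those left in Dhx30 differed by 0.0712 and 0.0587.

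Helicase TPM was mostly lower after pladienolide B on the deposited scale, and the direction depended on the scaling for some genes. On the deposited values 38 of the 47 genes tested were lower and 0 higher (limma), where 66.1% of all genes were lower, 6.38% higher and 72.4% called in all. The median was -1.68 log2 units for the helicases and -1.23 for all genes. The 0 higher calls hold for the 1.5-fold limit, since 4 genes (Ddx17, Ddx39, Ddx41 and Ddx28) were higher with an FDR below 0.05 and a smaller difference. After centring on the library median, which moved each gene by 1.48 log2 units, 15 helicases were lower and 11 higher, against 28.7% lower, 41.3% higher and 70% called of all genes. The centred median was -0.19 for the helicases and 0.25 for all genes. Centring turned 17 of the 47 genes from lower to higher, 7 of which were then called. Ddx4, Ddx25, Ddx43 and Ddx60 did not reach 1 TPM in 2 fibroblast libraries and were not tested.

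The largest decrease was in Dhx32, from 32.02 and 30.3 TPM under DMSO to 2.38 and 2.45 under pladienolide B, a difference of -3.64 ± 0.06 log2 units (SE, FDR = 9.53e-07). Each of the 12 largest decreases had an FDR of 8.80e-05, that of Dhx35, or less. Ddx59 fell from 12.1 and 11.6 to 1.27 and 1.15 TPM (-3.19 log2 units). Ddx19b, an mRNA export factor of the nuclear pore, fell from 9.67 and 9.36 to 1.27 and 1.38 TPM (-2.76 log2 units). In all 3 the libraries of a treatment lay close together and the groups were far apart, and all 3 were also lower after centring. Dhx30 fell from 24.3 and 22.6 to 3.42 and 4.03 TPM (-2.63, and -1.14 centred). Dhx57 fell from 25.4 and 24.3 to 4.57 and 5.05 TPM (-2.35, and -0.86 centred), and the sensor Ddx58 from 21.9 and 21.95 to 4.26 and 4.07 (-2.37, and -0.89 centred).

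Of the 16 ribosome biogenesis helicases, 15 were lower on the deposited values, and 5 were lower and 3 higher after centring. Over all genes tested, 66.1% were lower on the deposited values, and 28.7% lower and 41.3% higher after centring. Ddx27 fell from 20.5 and 20.2 to 2.62 and 2.65 TPM (-2.90 log2 units), Ddx10 from 31.04 and 30.3 to 4.02 and 4.41 (-2.84), and Ddx31 from 9.97 and 8.50 to 1.41 and 1.62 (-2.53). Ddx52, the last of the 12 largest decreases, was at -2.31, and all 4 of these were lower after centring. Ddx47, which had 3 called exons of lower inclusion, had 34.7 and 35.2 TPM under DMSO and 28.5 and 33.3 under pladienolide B. Its difference of -0.18 was not called (limma, FDR = 0.0770), and Ddx47 was higher after centring, at 1.30. A link between inclusion and TPM was not tested. Dhx33 fell from 10.7 and 10.4 to 5.00 and 5.66 TPM (-0.97 log2 units), and the log2 differences of Ddx21, Ddx51 and Ddx55 were -1.87, -0.94 and -2.07. Of these last 4 only Ddx55 was called lower after centring, at -0.59. Ddx21 was at -0.39 and Dhx33 and Ddx51 at 0.51 and 0.55, all under the 1.5-fold limit.

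Of the 10 core spliceosome helicases, 7 were lower on the deposited values, and 3 were lower and 3 higher after centring. The shares of all genes tested were 66.1% lower as deposited, and 28.7% lower and 41.3% higher after centring. Dhx8 fell from 27.9 and 26.03 to 4.66 and 4.81 TPM (-2.48 log2 units, and -1.0 centred), Dhx35 from 6.87 and 6.07 to 0.927 and 1.41 (-2.40 and -0.91) and Ddx42 from 66.5 and 64.99 to 13.5 and 15.5 (-2.17 and -0.69). These 3 were lower on either scale. Ddx23 (-1.82) and Dhx38 (-1.68) were lower on the deposited values and at -0.34 and -0.19 after centring, under the 1.5-fold limit. Dhx16 (-1.39) and Dhx15 (-1.21) were lower as deposited and changed sign when centred, to 0.10 and 0.27. Ddx46, with 46.4 and 44.8 TPM under DMSO and 32.4 and 29.6 under pladienolide B, and Ddx39b, with 103 and 102 and 84.3 and 84.4, were not called as deposited (-0.56 and -0.28) and were higher after centring (0.93 and 1.20). Ddx41 had 50.7 and 46.97 TPM under DMSO and 61.2 and 62.8 under pladienolide B (0.34, and 1.83 centred).

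Among the cofactors, Ddx5 fell from 504 and 493 to 252 and 246 TPM (-1.0 log2 units), and was at 0.48 after centring, which was not called. Ddx17 had 225 and 219 TPM under DMSO and 315 and 309 under pladienolide B (0.49, and 1.97 centred). Ddx17 was the most abundant helicase in both pladienolide B libraries and Ddx5 in both DMSO libraries, and the difference between the 2 genes in their change was not tested. Ddx39, with 27.2 and 24.8 and 35.1 and 37.3 TPM, was at 0.48 and rose after centring, at 1.96.

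**Figure D5:**
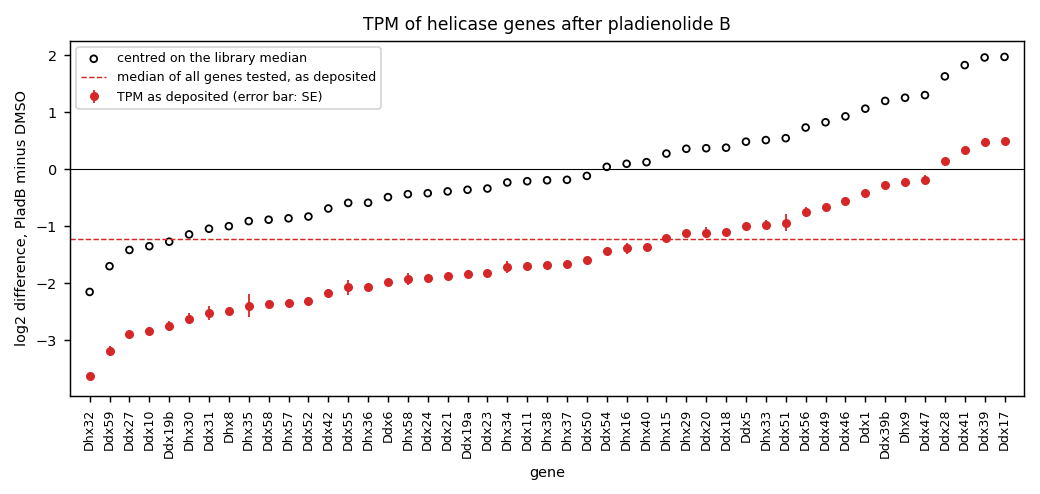
Log2 difference in TPM between pladienolide B and DMSO fibroblasts for the 47 helicase genes tested; filled points are the values as deposited with their SE, open points are values centred on the median of each library, and the dashed line is the median of all genes as deposited (-1.23). Most filled points lie below 0, while the open points lie on both sides of it.

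The 12 genes with an exon or intron called after treatment had a median TPM difference of -1.97 log2 units, ranging from -2.90 to 0.48, and the 35 without had a median of -1.67, ranging from -3.64 to 0.49, so both sets covered nearly the same range. Apart from TPM between tissues, Dhx30 was called in more comparisons than any other helicase (8): in tissues, in the alleles of cortex, heart and DMSO fibroblasts, in exons, introns and TPM after treatment, and in TPM in ESC. Ddx27, Ddx51 and Dhx57 were called in 4, and Ddx21, Ddx31, Ddx39, Ddx42, Ddx55, Dhx8 and Dhx33 in 3. Dhx30 also had the most distinct exons listed (18) and 5 of the 11 introns tested, so it had more chances of a call. Its allelic calls and its exon calls after treatment were all in the forms of the same exon, so the comparisons were not separate observations. Ddx39 combined a tissue-variable exon, an intron of higher retention and a higher TPM in ESC. Its exon had PSI of 0.108 and 0.0757 under DMSO and 0.00251 and 0.00690 under pladienolide B, a mean difference under the 0.1 limit.

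RNA helicases outside the naming rule were counted on the same scale for comparison. Of 12 such genes, among them Snrnp200, Aqr, Eif4a1, Eif4a3, Upf1 and Mov10, 10 were higher and 1 lower in ESC than in the organs (9 and 2 after centring), and 10 were lower and 0 higher after pladienolide B (4 lower and 4 higher after centring). Their median differences were 1.66 and -1.54 log2 units. Of all genes tested, 43.2% were higher and 31.1% lower in ESC (37% and 36.5% after centring). After pladienolide B, 66.1% of all genes were lower and 6.38% higher (28.7% and 41.3% after centring).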

How the data were processed

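RNA-seq libraries of F1 mice covered 7 tissues (14 libraries) and a fibroblast line (4 libraries). The authors trimmed the reads of the tissues to equal length, aligned all reads with HISAT2 2.0.1 to mm10 and to a SPRET/EiJ sequence made from it, assigned reads to alleles and counted junction reads per event with rMATS. Before trimming, the paper gives longer reads for heart, kidney and cortex than for spleen, lung and ESC. Effects of that difference cannot be told apart from differences between these tissues. The deposited event tables hold junction counts, 2 per cell, and the effective length of each form, a score in read positions that differed between the read lengths of tissues and fibroblasts, so PSI of the 2 sets was not compared. The authors deposited TPM from featureCounts with reads shared between genes counted in fractions. Columns of the authors' own comparisons (PSI differences, p-values) were not used, and the number of other sample columns left out was 0.

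PSI was computed from counts and lengths for autosomal events with 20 or more reads in each library (per allele between alleles), and each distinct exon was represented by its deepest event. Libraries of a group were its replicates, and tissues, alleles, treatments and their interaction were compared with a quasi-binomial model whose dispersion was moderated with limma 3.58.1 (R 4.3.3; Python 3.11.15, numpy 2.4.6, pandas 2.3.3) and kept at 1 or more, with Benjamini-Hochberg adjustment over all autosomal exons or introns tested. Between alleles, exons were tested only where PSI from the allelic reads together lay within 0.1 of PSI from all reads. The prior was drawn from events with a fitted binomial variance of 3 or more. All 3 rules for it had been run on these data, and their calls seen, before simulated data were used to choose between them; the one chosen had the lowest maximum share of false calls there. With the library as a block, the ESC alleles gave more false calls on simulated data than any other comparison. TPM was tested with limma (trend) on log2(TPM + 0.1), which understates changes of low genes, for genes with 1 TPM or more in at least 2 libraries, as deposited and after centring.

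The 2 alleles of a library come from the same RNA, and their deviations from the group means were correlated (r from 0.0438 to 0.424), so fits with the library as a block are given beside the allelic results. Junction reads are not independent molecules, and limits from counts cover counting error only. Named exons and genes were up to 12 per comparison with the largest called difference, those called in 3 or more comparisons, and every core spliceosome helicase for TPM; others are named with the reason. The members, lists and tests were chosen with earlier results of these data known. Alternatives were other read minimums, pseudocounts, priors, scalings and left-out libraries.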

Additional observations from a re-analysis of the deposited data

Results flagged for a closer look

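The allelic difference of the divergent Dhx30 exon had the opposite sign in spleen. Both spleen libraries had a higher PSI on the SPRET/EiJ allele, with mean differences (C57BL/6J minus SPRET/EiJ) of -0.0271 for the form of 126 bp and -0.0387 for the form of 176 bp, while in cortex, heart, kidney, lung, ESC and both fibroblast groups every library had a higher PSI on the C57BL/6J allele. The 2 forms share reads, so these are not separate observations, and the difference between spleen and the other groups was not tested.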

How the results depend on the processing

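Of the counts of calls recomputed under an alternative, 118 stayed within 1.5 times the value given and 7 did not. Between tissues, 4 helicase exons became 3 to 7 when single libraries were left out (7 without ESC replicate 2), 7 with a prior from events of fitted variance 1 or more, and 8 with a prior from events with 10 reads of the less used form. The library as a replicate block raised the allelic calls in tissues from 2 to 4 and under pladienolide B from 0 to 1, where the prior from variance 1 or more gave 3 (in Ddx42, Ddx47 and Dhx36). Under pladienolide B, 1.99% of all exons were called with the block and 2.3% with that prior. A minimum of 50 reads left 9 of the 16 exons called after pladienolide B, since fewer were deep enough. Of the values of the exons, introns and genes chosen by the naming rule, 1290 kept direction and call, 17 lost the call and 2 gained it. The Ddx27 exon ranged from -0.231 without pladienolide B replicate 1 to 0 without replicate 2. With median-centred TPM, 4 core spliceosome genes turned from lower to higher after pladienolide B, Ddx39b (1.20), Ddx46 (0.93), Dhx15 (0.27) and Dhx16 (0.10), among the 17 of 47 genes that did so. A block on the replicate number left the helicase counts between tissues and between treatments at the values given (4 exons between tissues). Whether a number marks the same animal in each organ is not given in the sources used here. Deviations of same-numbered organ libraries correlated at 0.0286 to 0.204 for TPM, with 5 of 15 pairs of organs above 0.1, and at -0.0226 to 0.0551 for PSI, and those of fibroblasts at -0.00570 to 0.0243. Over all genes, the block raised the ESC allelic calls from 27 to 474 and the interaction calls from 0 to 9. The cause of these changes was not tested, apart from those stated. The planned count test in edgeR was not run, because the deposited cells hold lists of 2 counts.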

Other observations

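The genes with a Ddx symbol on the X chromosome, which the naming rule left out for lack of an autosomal position, had levels as follows. Ddx3x, which acts in translation initiation, had 263 and 255 TPM in cortex, 480 and 497 in the ESC clones and 95.7 and 101 in heart, and went from 307 and 309 under DMSO to 137 and 163 under pladienolide B. Ddx26b had 50.4 and 42.8 TPM in cortex and 1.33 and 1.17 in liver, and 7.77 and 7.91 under DMSO against 1.58 and 1.48 under pladienolide B. In both genes the treated libraries lay below the DMSO libraries, as deposited, and no test was made.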
